A study of Mus musculus with 6 samples.

Results

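The matrix metalloproteinases (MMP), their tissue inhibitors (TIMP) and the ADAM, ADAMTS and ADAMTS-like genes were described across irradiated NIH3T3 cells. Members were every row of the expression table whose gene symbol starts with Mmp, Timp or Adam and a digit, or with Adamts. This rule found 84 of the 21878 genes: 23 MMP, 4 TIMP, 33 ADAM, 19 ADAMTS and 5 ADAMTS-like genes. NIH3T3 is an immortalised line of mouse embryo fibroblasts, and all libraries came from cells labelled with a radiation injury and the 72 h time point. Exosome-treated cells (3 libraries), given small membrane vesicles derived from plasma, were compared with cells given phosphate-buffered saline, PBS (3 libraries). The labels give no radiation dose, no source of the plasma and do not say whether replicates were grown as separate cultures. The p-values therefore cover variation between libraries that could be technical in part.

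MMPs are zinc-dependent enzymes that cut collagens and other matrix proteins outside the cell, and TIMPs block their active site. ADAMs sit in the cell membrane, where the active ones release growth factors, cytokines and adhesion proteins from the surface. ADAMTS enzymes are secreted relatives that cut matrix proteoglycans and trim procollagens, and ADAMTS-like proteins share their matrix-binding part without the protease. In wounds, fibroblasts use these genes to clear, build and remodel matrix.

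Levels were FPKM, fragment counts scaled for transcript length and library size, as read from the deposited expression columns. In total FPKM the libraries ranged from 296751 to 313048, and the members took 0.519% to 0.540% of it in exosome libraries and 0.455% to 0.482% in PBS libraries. The counts behind the authors' deposited table summed to 19824812 normalized reads per exosome library and 20341541 per PBS library, as group means. All 10 fibroblast markers were above 1 FPKM in at least 1 library, with summed levels of 7027 to 7307 FPKM in exosome libraries and 6229 to 6474 FPKM in PBS libraries. Of 19 leukocyte markers 15 were under 1 FPKM in all libraries, and 8 of these were listed at 0 throughout, among them Spi1 and Tyrobp. The leukocyte sums were 6.35 to 7.04 FPKM in exosome libraries and 9.999 to 14.7 FPKM in PBS libraries. In such bulk libraries fewer cells of a type and less RNA per cell cannot be told apart.

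Most measured MMP and ADAMTS genes rose with exosomes, and Timp1 and Timp3 fell. Of 28 members with at least 1 FPKM in 3 or more libraries, 13 rose and 5 fell, and 10 did not pass the test (limma on log2(FPKM + 1), Benjamini-Hochberg adjusted p under 0.05 over all genes). In this comparison 43.8% of 10274 tested genes were called, 25.4% raised and 18.4% lowered. Of 16 tested MMP and ADAMTS genes 11 rose and 0 fell, and of 3 tested TIMP genes 0 rose and 2 fell. Changes of at least 0.5 on the log2 scale were called in 7 raised members and 1 lowered member, against 3.85% and 3.11% of all tested genes. The median log2 change was 0.19 over the tested members and 0.04 over all tested genes. Exosome and PBS values did not overlap in 19 of 28 tested members, 13 with exosomes above and 6 below. Of all tested genes 55.6% did not overlap, 32% with exosomes above and 23.5% below. Of the 56 members not tested 23 were listed at 0 in all libraries, and 1 (Mmp3) reached 1 FPKM, in PBS replicate 3. Without exosome replicate 3 the lowered members numbered 3 in place of 5 (Adam23 and Adamtsl5 were lost).

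**Figure D1:**
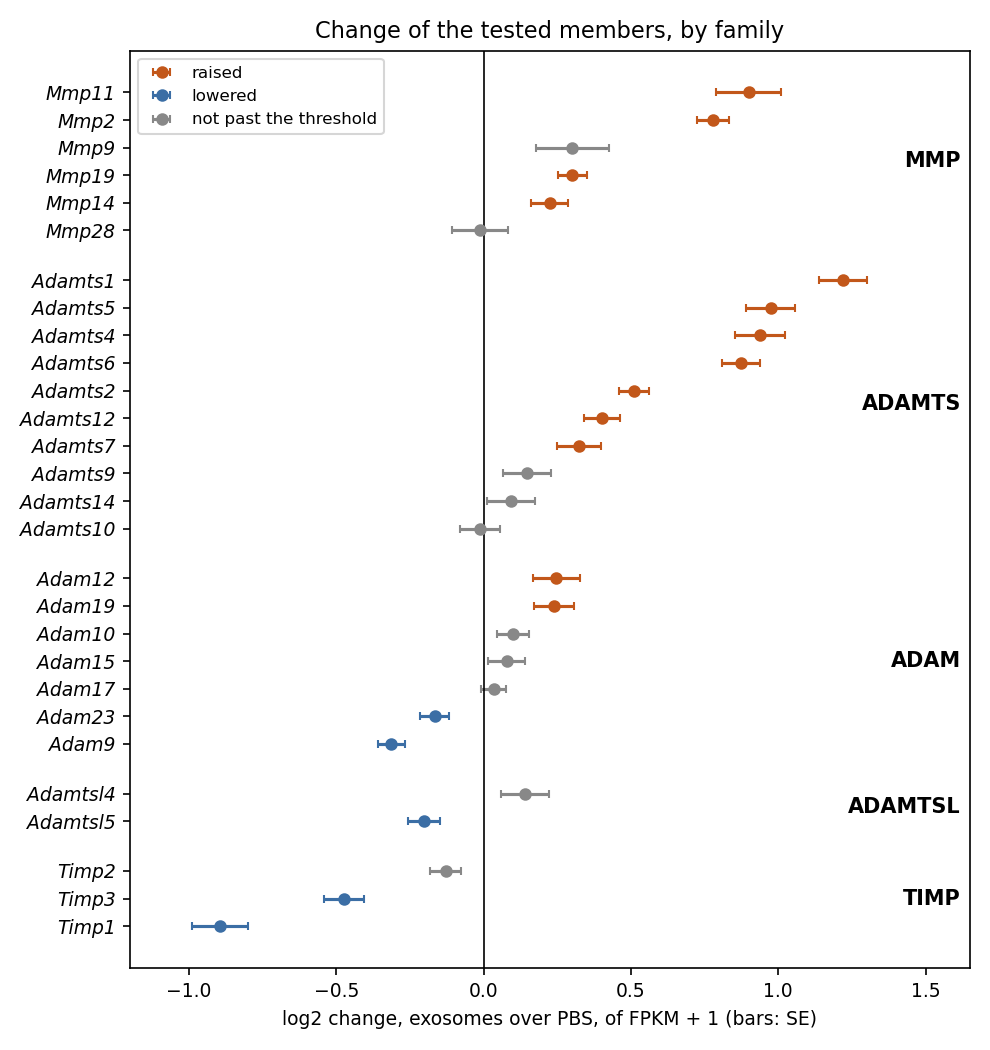
Log2 change of FPKM + 1, exosomes over PBS, with its SE (3 libraries per group), for the 28 tested members grouped by family down the page. Colours mark members raised, lowered or not past the adjusted p of 0.05. Adamts1 lies farthest to the right at 1.22 and Timp1 farthest to the left at -0.89.

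Mmp2, gelatinase A, which degrades denatured collagen and basement membrane collagen, was the most abundant MMP and rose with exosomes. It was at 416, 374 and 374 FPKM in exosome libraries and 222, 231 and 223 FPKM in PBS libraries. Each exosome library was far above each PBS library, with a log2 change of 0.78 ± 0.05 (SE, limma adjusted p = 7.57e-06). Mmp14, the membrane-anchored protease that cuts fibrillar collagen and activates the proform of Mmp2 at the cell surface, was the next most abundant. Its FPKM were 172, 156 and 154 in exosome libraries and 131, 148 and 133 in PBS libraries. The groups lay close to each other without overlap, and the log2 change was 0.22 ± 0.06 (limma adjusted p = 0.0162). This call ended without exosome replicate 1 (adjusted p = 0.0649), without PBS replicate 1 (0.068) and in the authors' deposited table (0.116), in a range of 0.0051 to 0.116 over 16 alternatives.

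Mmp11, stromelysin-3, which is activated inside the cell by furin, rose at a lower level. It was at 9.47, 8.89 and 9.94 FPKM in exosome libraries and 4.21, 5.80 and 3.92 FPKM in PBS libraries, with a log2 change of 0.90 ± 0.11 (limma adjusted p = 0.000341). Its groups were well apart although PBS replicate 2 stood above the other PBS libraries. Mmp19, a widely expressed secreted MMP, was at 33.4, 30.7 and 31.2 FPKM in exosome libraries and 25.3, 26.3 and 25.2 FPKM in PBS libraries (log2 change 0.30 ± 0.05, limma adjusted p = 0.00106). Mmp9, gelatinase B, was at 8.77, 9.66 and 10.1 FPKM in exosome libraries and 8.06, 8.91 and 5.86 FPKM in PBS libraries. PBS replicate 2 overlapped the exosome values, and the log2 change of 0.30 ± 0.12 did not pass (limma adjusted p = 0.0801), except without PBS replicate 2 (0.0187; 0.0187 to 0.337 over 16 alternatives). Mmp9 is also known from leukocytes, whose markers summed to less in exosome libraries as given above, and their part in its value was not tested. Mmp28, epilysin, was near 1 FPKM in both groups, with a log2 change of -0.01 (95% interval -0.22 to 0.20). In GENCODE gene models Mmp11 shares exon sequence with Chchd10 on the opposite strand (155 bases), and Mmp19 with Tmem198b (789 bases). The sources do not state whether strand was used in counting. Chchd10 was at 0.436 and Tmem198b at 4.46 FPKM with exosomes, against 0.189 and 3.87 FPKM with PBS.

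**Figure D2:**
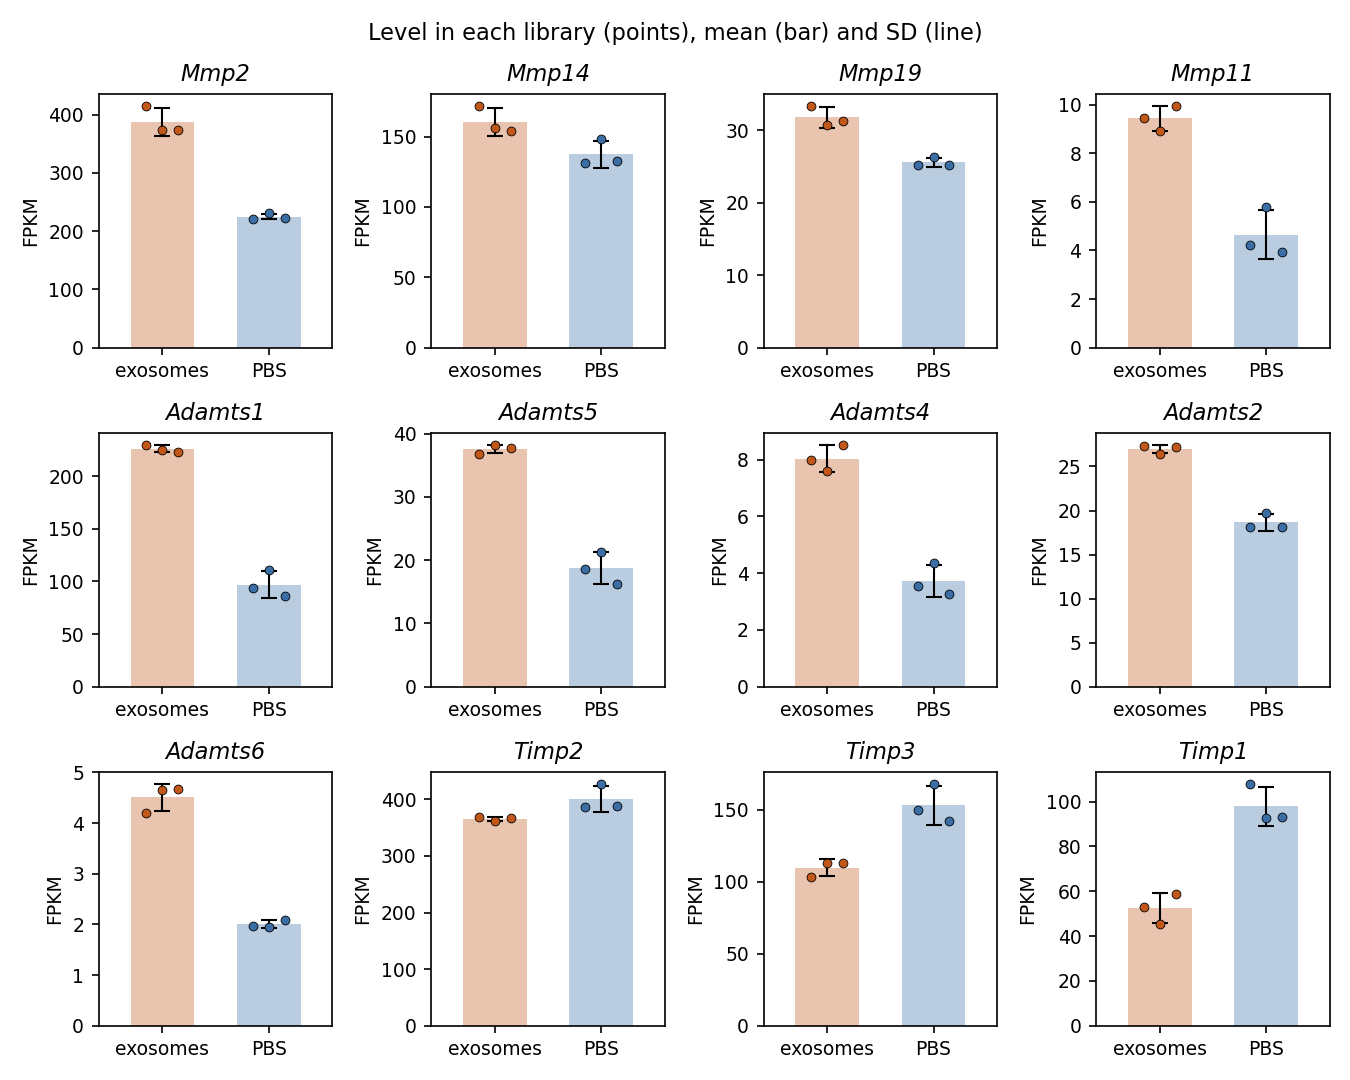
FPKM of 12 members in each library (points), with the mean (bar) and SD (line) of 3 exosome libraries and 3 PBS libraries. Every panel starts at 0. The MMP and ADAMTS genes shown are higher in exosome libraries and the 3 TIMP genes higher in PBS libraries.

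Of 23 MMPs 17 stayed under the filter and were not tested. Of these 7 were listed at 0 in all libraries, including the collagenase Mmp8 and the matrilysin Mmp7. Mmp3, stromelysin-1, which activates other MMP proforms, and Mmp13, the main interstitial collagenase of rodents, were among the untested MMPs. Both are named here after their values were seen. Mmp3 was at 0.0436, 0.0192 and 0 FPKM in exosome libraries and 0.879, 0.341 and 1.11 FPKM in PBS libraries. All PBS values exceeded all exosome values, and the mean normalized counts in the authors' deposited table were 0.987 with exosomes and 39.5 with PBS (adjusted p = 0.000107 there). Mmp13 was listed at 0 in the exosome libraries, against 0.119, 0 and 0.0850 FPKM in PBS libraries. The authors' deposited table gives it a mean of 0 normalized counts with exosomes and 5.204 with PBS, and an adjusted p of 0.0805. Without the filter limma called Mmp3 (adjusted p = 0.0136).

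Promoter sequences from RefSeq (build GRCm38.p6; the processing notes name mm9) were matched by Entrez identifier for 53 of the 84 members. The 250 bases before the gene start were searched for TGANTCA and, on both strands, for GGGCGG, the core of the GC box. TGANTCA reads the same on both strands and includes TGAGTCA and TGACTCA, which AP-1 (Fos and Jun) dimers bind. TGANTCA was present in 12 of 53 members, against 7.82% of all 27025 genes with a promoter. It was in 8 of 18 MMP genes, all on chromosome 9 (Mmp1a, Mmp1b, Mmp3, Mmp7, Mmp10, Mmp12, Mmp13 and Mmp20), in 4 of 17 ADAM genes and in 0 of 10 ADAMTS and 0 of 4 TIMP genes. Of the 18 tested members with a promoter, 1 held it, namely Adam19. GGGCGG was in 15 of these 18 tested members and in 9 of 35 untested ones, against 35.4% of all genes. The shares of all genes cover genes of any level, and the share among all tested genes was not computed. A match is a description of letters and not of a bound site.

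The 150 bases before the start are shown for Mmp3 and Mmp13, the stromelysin and collagenase described above, the tested member with TGANTCA (Adam19), raised genes (Adamts1, Mmp11) and the TIMP gene that fell most (Timp1). Capitals mark TGANTCA or GGGCGG on either strand. Mmp3 is at chr9:7445672-7445821, Mmp13 at chr9:7272364-7272513, Adam19 at chr11:46055834-46055983 (one of its 3 listed starts) and Timp1 at chrX:20870016-20870165, all on the plus strand. Adamts1 is at chr16:85803114-85803263 and Mmp11 at chr10:75932503-75932652, on the minus strand.
Mmp3: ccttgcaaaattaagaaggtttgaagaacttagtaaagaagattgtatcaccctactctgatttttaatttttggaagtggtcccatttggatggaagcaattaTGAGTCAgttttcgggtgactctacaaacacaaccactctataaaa
Mmp13: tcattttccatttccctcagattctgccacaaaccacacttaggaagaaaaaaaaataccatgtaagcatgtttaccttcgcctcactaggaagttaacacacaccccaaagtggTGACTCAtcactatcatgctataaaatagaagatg
Adam19: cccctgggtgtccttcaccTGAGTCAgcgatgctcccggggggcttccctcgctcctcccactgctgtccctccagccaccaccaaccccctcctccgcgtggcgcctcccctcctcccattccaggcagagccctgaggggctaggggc
Adamts1: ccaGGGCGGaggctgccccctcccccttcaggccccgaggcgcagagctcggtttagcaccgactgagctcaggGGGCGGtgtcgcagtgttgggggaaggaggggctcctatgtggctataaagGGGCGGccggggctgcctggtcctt
Mmp11: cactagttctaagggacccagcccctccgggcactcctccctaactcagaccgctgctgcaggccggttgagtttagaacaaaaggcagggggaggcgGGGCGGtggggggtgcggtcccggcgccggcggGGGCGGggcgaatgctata
Timp1: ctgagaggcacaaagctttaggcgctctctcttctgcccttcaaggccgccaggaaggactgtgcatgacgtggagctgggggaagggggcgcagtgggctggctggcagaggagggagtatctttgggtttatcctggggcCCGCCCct
In Mmp3 the match TGAGTCA runs from base 46 to base 40 before the start, and in Mmp13 TGACTCA runs from base 35 to base 29. Adam19 holds TGAGTCA from base 131 to base 125. Adamts1 holds 3 matches to GGGCGG and Mmp11 holds 2, and neither holds TGANTCA. Timp1 holds 1 match to the reverse complement of GGGCGG, from base 8 to base 3.

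ADAMTS genes had the highest median change of the families. Of 10 tested ADAMTS genes 7 rose, 0 fell and 3 did not pass, with a median log2 change of 0.46. Of all tested genes 25.4% rose and 18.4% fell. Among the enzymes that cut the large proteoglycans versican and aggrecan 4 were tested, of which 3 rose and 0 fell. Adamts1, a versican and aggrecan protease, was the most abundant. It was at 230, 225 and 223 FPKM in exosome libraries and 93.4, 111 and 86.2 FPKM in PBS libraries. All exosome libraries were far above all PBS libraries, with a log2 change of 1.22 ± 0.08 (limma adjusted p = 7.57e-06).

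Adamts5 and Adamts4, the main aggrecanases of cartilage, rose as well. Adamts5 was at 36.8, 38.1 and 37.8 FPKM in exosome libraries and 18.7, 21.3 and 16.2 FPKM in PBS libraries (log2 change 0.97 ± 0.08, limma adjusted p = 3.48e-05). Adamts4 was at 7.999, 7.58 and 8.53 FPKM in exosome libraries and 3.55, 4.37 and 3.28 FPKM in PBS libraries (0.94 ± 0.09, limma adjusted p = 4.52e-05). The exosome values of both genes were narrowly grouped, and the PBS values spread more widely below them. Adamts9, of the same group, was at 4.02, 3.55 and 3.44 FPKM in exosome libraries and 3.01, 2.98 and 3.67 FPKM in PBS libraries. PBS replicate 3 overlapped the exosome values, and the log2 change of 0.15 ± 0.08 did not pass (limma adjusted p = 0.167), except without PBS replicate 3 (0.0432; 0.0432 to 0.592 over 15 alternatives).

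Adamts15, another proteoglycanase, lay under the filter and is named after its values were seen. It was at 0.146, 0.289 and 0.221 FPKM in exosome libraries and 0, 0.0156 and 0.00811 FPKM in PBS libraries. All exosome values were above all PBS values. The authors' deposited table gives 28.9 normalized counts with exosomes and 1.75 with PBS, a fold of 16.6 (adjusted p = 6.89e-08 there), and limma without the filter called it too (adjusted p = 0.00506).

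Adamts2, which removes the amino-terminal propeptide of fibrillar procollagens, was at 27.4, 26.4 and 27.2 FPKM in exosome libraries and 18.1, 19.8 and 18.1 FPKM in PBS libraries. The groups were well separated (log2 change 0.51 ± 0.05, limma adjusted p = 6.22e-05). Adamts14, with the same activity, was at 4.33 ± 0.126 FPKM with exosomes and 4.02 ± 0.576 FPKM with PBS (SD, n = 3 each). Its log2 change of 0.09 had a 95% interval of -0.09 to 0.28 and did not pass. The third procollagen N-proteinase, Adamts3, was listed at 0 in all libraries.

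Adamts6, a regulator of fibrillin microfibrils, was at 4.20, 4.65 and 4.67 FPKM in exosome libraries and 1.97, 1.94 and 2.09 FPKM in PBS libraries (log2 change 0.87 ± 0.06, limma adjusted p = 1.04e-05). Its closest relative Adamts10, which binds fibrillin, was at 6.23 ± 0.519 FPKM with exosomes and 6.29 ± 0.338 FPKM with PBS (SD, n = 3 each). The log2 change of Adamts10 was -0.01 with a 95% interval of -0.16 to 0.14. Adamts12 and Adamts7, which both cut the cartilage protein COMP, rose by smaller amounts. Adamts12 was at 8.79 ± 0.646 FPKM with exosomes and 6.39 ± 0.192 FPKM with PBS (SD, n = 3 each), a log2 change of 0.40. Adamts7 was at 5.12 ± 0.410 FPKM with exosomes and 3.89 ± 0.325 FPKM with PBS (SD, n = 3 each), a log2 change of 0.32. Adamts7 shares 122 bases of exon with Tbc1d2b on the opposite strand, which was at 33.8 FPKM with exosomes and 33.4 FPKM with PBS.

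The 3 tested TIMP inhibitors went the other way, with all exosome values below all PBS values, against 23.5% of all tested genes. Timp1 and Timp3 were called lowered, and Timp2 did not pass. Timp1, a soluble inhibitor of most secreted MMPs, was at 53.1, 45.4 and 58.7 FPKM in exosome libraries and 108, 92.7 and 93.1 FPKM in PBS libraries. It fell by 0.89 ± 0.09 on the log2 scale (limma adjusted p = 0.000183). Timp3, which binds to the matrix and also inhibits Adam17 and the aggrecanases, was at 103, 113 and 113 FPKM in exosome libraries and 150, 168 and 142 FPKM in PBS libraries. It fell by 0.47 ± 0.07 (limma adjusted p = 0.000536). Timp3 shares up to 1733 bases of exon with Syn3 on the opposite strand, and Syn3 was at 0.113 FPKM with exosomes and 0.125 FPKM with PBS.

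Timp2, which both inhibits MMPs and takes part in the activation of Mmp2 by Mmp14, was the most abundant inhibitor. It was at 369, 362 and 367 FPKM in exosome libraries and 386, 428 and 388 FPKM in PBS libraries. The values were close without overlap, and the log2 change of -0.13 ± 0.05 did not pass (limma adjusted p = 0.0733). It did pass with median of ratios scaling (0.0215), with equal library sums (0.0177) and in the authors' deposited table (0.00271), in a range of 0.00271 to 0.206 over 16 alternatives. Timp4, the fourth inhibitor, stayed under the filter at 0.716, 0.536 and 0.698 FPKM in exosome libraries and 0.492, 0.675 and 0.272 FPKM in PBS libraries, and its groups overlapped.

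Summed over each family, MMP transcripts were at 641, 581 and 581 FPKM in exosome libraries and 394, 422 and 394 FPKM in PBS libraries. TIMP transcripts summed to 526, 521 and 540 FPKM in exosome libraries and 644, 690 and 623 FPKM in PBS libraries. The TIMP sum was 0.820, 0.896 and 0.929 times the MMP sum in exosome libraries and 1.64, 1.64 and 1.58 times the MMP sum in PBS libraries. The TIMP sum was thus above the MMP sum in the PBS libraries and below it in the exosome libraries. Mmp2 held 64.5% of the MMP sum with exosomes and 55.9% with PBS. ADAMTS genes summed to 335, 331 and 329 FPKM in exosome libraries and 159, 183 and 151 FPKM in PBS libraries. These sums are descriptions with no test, since a few abundant members set them, and they count RNA and not protein or activity.

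**Figure D3:**
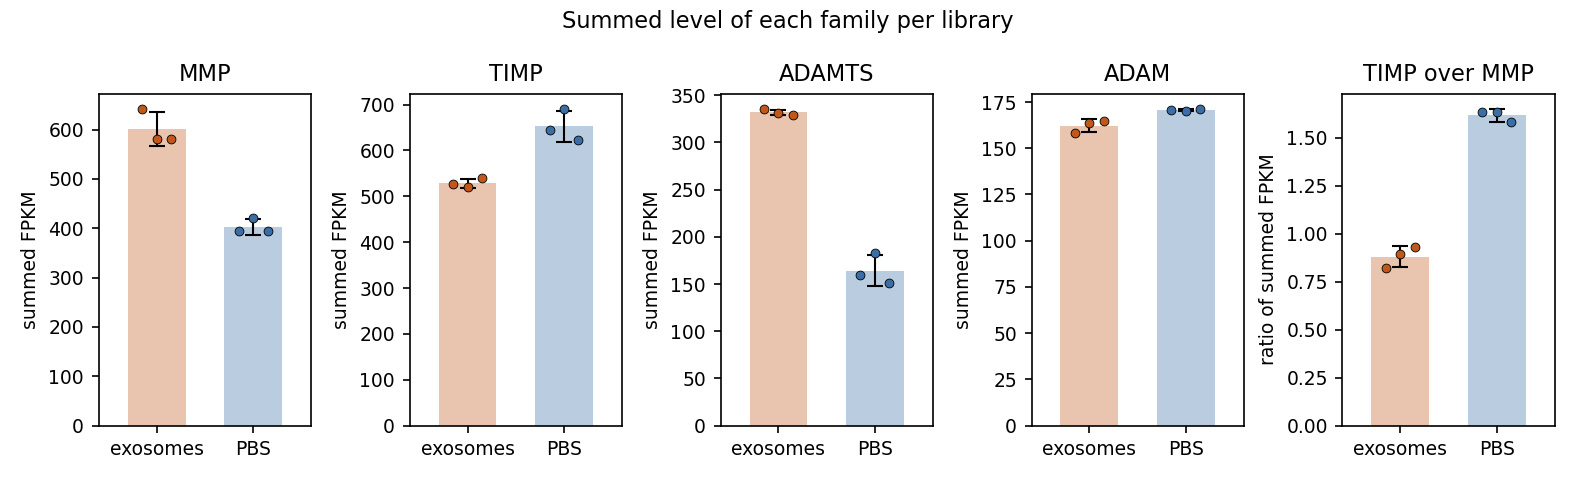
Summed FPKM of the MMP, TIMP, ADAMTS and ADAM families and the ratio of the TIMP sum to the MMP sum, in each library (points), with the mean (bar) and SD (line) of 3 libraries per group. The MMP and ADAMTS sums are higher and the TIMP sum lower in exosome libraries, and the ADAM sum differs little (162 against 170.5 FPKM).

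The tested ADAM genes had log2 changes from -0.31 to 0.25. Of 7 tested ADAM genes 2 rose, 2 fell and 3 did not pass, and 0 changed by 0.5 or more. Of all tested genes 25.4% rose and 18.4% fell, and 3.85% and 3.11% did so by 0.5 or more. Adam9, a membrane protease, was the most abundant, at 43.6, 45.4 and 45.5 FPKM in exosome libraries and 56.4, 53.3 and 58.2 FPKM in PBS libraries. All exosome values were below all PBS values, and it fell by 0.31 ± 0.05 on the log2 scale (limma adjusted p = 0.000739).

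Adam10 and Adam17 are the main sheddases, of Notch receptors and cadherins and of tumour necrosis factor and growth factor precursors. Adam10 was at 22.1, 25.1 and 23.8 FPKM in exosome libraries and 22.9, 21.8 and 21.4 FPKM in PBS libraries, and the groups overlapped. The log2 change was 0.10, with a 95% interval of -0.02 to 0.22, and did not pass (limma adjusted p = 0.173). Adam17 was at 18.7 ± 0.248 FPKM with exosomes and 18.2 ± 0.230 FPKM with PBS (SD, n = 3 each), with a log2 change of 0.03 and a 95% interval of -0.06 to 0.13. Adam15 was at 22.7 ± 1.96 FPKM with exosomes and 21.4 ± 0.474 FPKM with PBS (SD, n = 3 each), with an interval of -0.06 to 0.22.

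Adam12 and Adam19, the meltrins, which can release neuregulin and heparin-binding EGF from the surface, rose by small amounts, and both calls depended on single libraries. Adam12 was at 3.51, 3.99 and 4.27 FPKM in exosome libraries and 3.02, 3.50 and 2.93 FPKM in PBS libraries (log2 change 0.25 ± 0.08, limma adjusted p = 0.0315). Its lowest exosome value nearly met its highest PBS value. The call ended without exosome replicate 2 (0.0893) or 3 (0.114), without PBS replicate 1 (0.0983) or 3 (0.0849), without the filter (0.0657) and in the authors' deposited table (0.0838), in a range of 0.0147 to 0.114 over 15 alternatives. Adam19 was at 14.1, 16.9 and 16.3 FPKM in exosome libraries and 13.5, 13.4 and 12.6 FPKM in PBS libraries (0.24 ± 0.07, limma adjusted p = 0.0177). That call ended without exosome replicate 2 (0.0712) or 3 (0.0617) and in the authors' deposited table (0.0749), in a range of 0.00466 to 0.0749 over 16 alternatives. Adam19 shares up to 499 bases of exon with models on the opposite strand that have no row in the table.

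Adam23, which lacks protease activity and acts in cell adhesion, was at 31.5, 30.4 and 29.4 FPKM in exosome libraries and 32.5, 35.5 and 34.9 FPKM in PBS libraries. All exosome values were below all PBS values, and it fell by 0.17 ± 0.05 on the log2 scale (limma adjusted p = 0.0224). The call ended without exosome replicate 2 (0.0608) or 3 (0.0795) and without PBS replicate 2 (0.0624) or 3 (0.0578). With the replicate number as a block it also ended (0.054), in a range of 0.000892 to 0.0795 over 16 alternatives.

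Of the 26 untested ADAM genes 12 were listed at 0 in all libraries, all of them among the members known from testis. Adam1a had the highest mean of all 56 untested members, 0.624 FPKM with exosomes and 0.768 FPKM with PBS. Adam8, known mainly from myeloid cells, and Adam5, known from testis, are named after their values were seen. Adam8 was at 0.300, 0.364 and 0.429 FPKM in exosome libraries and 0.646, 0.769 and 0.456 FPKM in PBS libraries (adjusted p = 0.00198 in the authors' deposited table, and 0.0556 in limma without the filter). Its groups came close to each other without overlap. The 19 leukocyte markers summed to less in exosome libraries, as given above. Of the 3 markers that were tested Cd14 and Itgb2 fell (limma adjusted p = 0.0388 and 0.00136) and Cd68 did not pass (0.878), and 8 of the list were at 0 in all libraries. Their part in the Adam8 value was not tested. Adam5 was at 0.407, 0.658 and 0.511 FPKM in exosome libraries and 0.225, 0.356 and 0.322 FPKM in PBS libraries (adjusted p = 0.00784 in the authors' deposited table, and 0.0514 in limma without the filter).

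**Figure D4:**
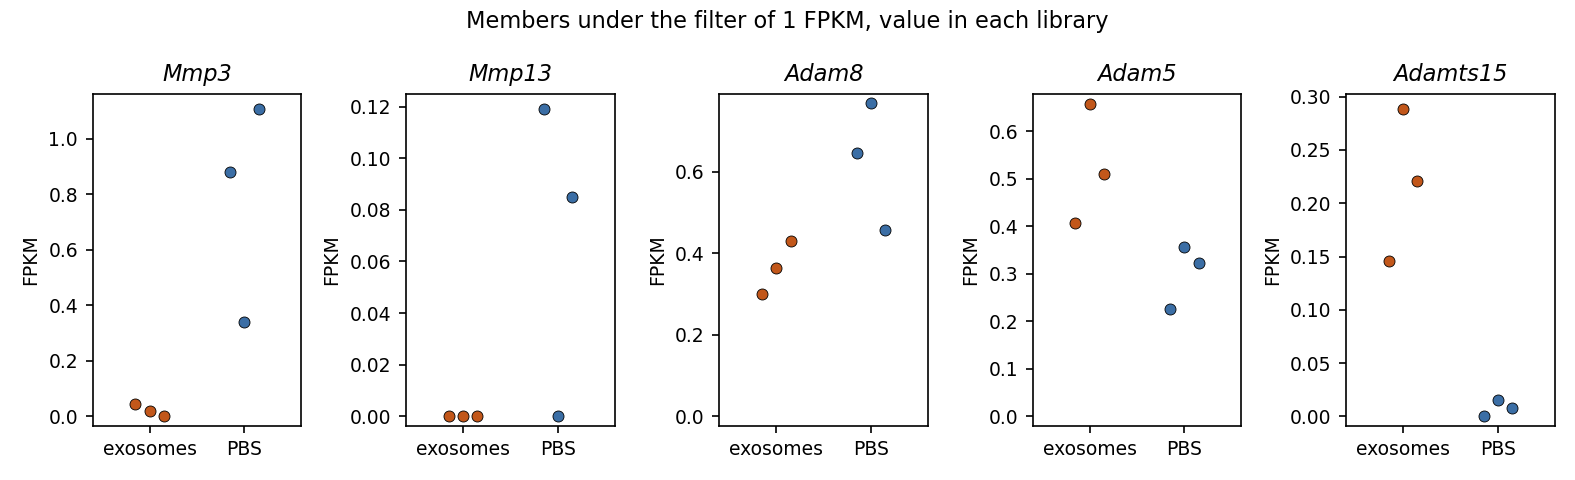
FPKM in each of 3 exosome libraries and 3 PBS libraries (points) for 5 members under the filter of 1 FPKM in 3 libraries. All PBS values of Mmp3 and Adam8 lie above the exosome values, and all exosome values of Adam5 and Adamts15 above the PBS values, while Mmp13 is at 0 in the exosome libraries and in 1 PBS library.

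ADAMTS-like genes were low. Adamtsl5, a secreted protein without protease domain, was at 6.89, 6.49 and 6.16 FPKM in exosome libraries and 7.64, 7.64 and 7.66 FPKM in PBS libraries. It fell by 0.20 ± 0.05 on the log2 scale (limma adjusted p = 0.014), a call that ended without exosome replicate 3 (0.0564; 7.4e-05 to 0.0564 over 16 alternatives). The authors' deposited table gives Adamtsl5 a log2 fold of -0.38. Adamtsl4, which binds fibrillin microfibrils, was at 3.75 ± 0.377 FPKM with exosomes and 3.31 ± 0.323 FPKM with PBS (SD, n = 3 each) and did not pass (log2 change 0.14, 95% interval -0.04 to 0.32). Adamtsl1, Adamtsl2 and Adamtsl3 stayed under the filter, Adamtsl1 at 0.0650 FPKM with exosomes and 0.0785 FPKM with PBS.

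The count test in the authors' deposited table called 12 members raised and 8 lowered among 62 members with an adjusted p, against 12.4% and 13.5% of all 15844 genes with one. Of the 18 members called here 15 were also called there in the same direction and 0 in the opposite one. Of all 4501 genes called here 3464 were also called there in the same direction and 0 in the opposite one. The log2 ratio of mean FPKM was above the authors' log2 fold in each of the 28 tested members, by 0.0036 to 0.15 with a median of 0.06. Over all tested genes the median of this difference was 0.05. The authors' deposited table gives log2 folds of 1.18 for Adamts1, 0.98 for Adamts5, 0.73 for Mmp2 and -0.97 for Timp1.

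**Figure D5:**
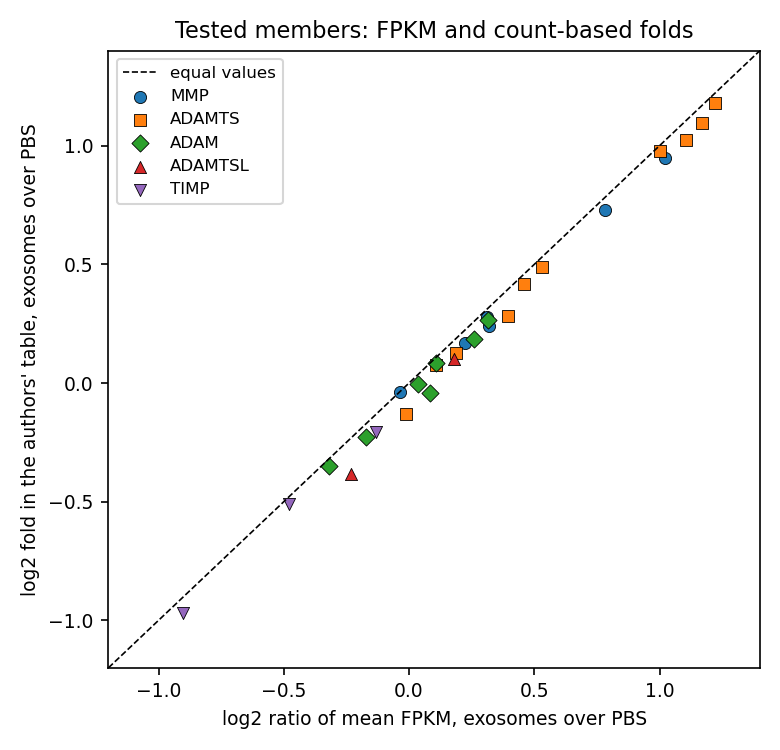
Log2 ratio of mean FPKM (horizontal) and log2 fold in the authors' deposited table (vertical), exosomes over PBS, for the 28 tested members, with symbols by family and the line of equal values dashed. The points follow the line and lie just below it, by a median of 0.06.

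Genes that control these proteases changed in both directions. Of 17 tested genes in a list of 25 regulators 6 rose and 4 fell, against 25.4% raised and 18.4% lowered of all tested genes. Sdc4, a cell-surface proteoglycan, was at 64.1 ± 2.59 FPKM with exosomes and 111.5 ± 4.92 FPKM with PBS (SD, n = 3 each; log2 change -0.79, limma adjusted p = 4.46e-06). Cd44, the hyaluronan receptor that docks MMPs at the surface, was at 17.4 ± 0.383 FPKM with exosomes and 26.8 ± 1.04 FPKM with PBS (-0.59, limma adjusted p = 1.82e-05). Sparc, a matricellular protein, was at 537 ± 13.7 FPKM with exosomes and 394 ± 17.1 FPKM with PBS (0.45, limma adjusted p = 0.000159). Chosen after their values were seen, Reck, a membrane-anchored MMP inhibitor, rose by 0.56, and Tspan17, a tetraspanin that carries Adam10 to the surface, rose by 0.84. Furin, the convertase that activates Mmp14 and Mmp11 and also chosen later, was at 17.2 ± 0.444 FPKM with exosomes and 18.5 ± 0.656 FPKM with PBS (SD, n = 3 each) and did not pass (limma adjusted p = 0.111). It did pass in the count test of the authors' deposited table (adjusted p = 0.00487 there).

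Among known substrates, matrix proteins mostly rose and shed surface proteins mostly fell. Of 21 tested matrix substrates 16 rose and 4 fell, with a median log2 change of 0.47. Of all tested genes 25.4% rose and 18.4% fell. Nid1, nidogen-1 of the basement membrane, was at 121 ± 10.3 FPKM with exosomes and 254.5 ± 12.7 FPKM with PBS (log2 change -1.07, limma adjusted p = 4.29e-06). Nid2, nidogen-2, went the other way and was chosen after its values were seen. It was at 46.0 ± 3.80 FPKM with exosomes and 13.4 ± 3.63 FPKM with PBS (1.74, limma adjusted p = 0.000262). Col1a1 and Col5a2, chains of fibrillar collagens, were at 782.3 ± 16.5 and 145 ± 2.14 FPKM with exosomes and 450 ± 22.7 and 88.3 ± 5.50 FPKM with PBS (0.80 and 0.71, limma adjusted p = 5.85e-06 and 9.49e-06). Vcan, the versican substrate of Adamts1, was at 92.5 ± 5.12 FPKM with exosomes and 80.7 ± 1.49 FPKM with PBS (0.19, limma adjusted p = 0.0105), and was chosen for its link to Adamts1 after values were seen. Of 20 tested substrates of surface shedding 3 rose and 11 fell (median log2 change -0.26), against the same shares of all tested genes. Hbegf, the heparin-binding EGF released by ADAMs, was at 3.41 ± 0.245 FPKM with exosomes and 10.2 ± 0.829 FPKM with PBS (-1.35, limma adjusted p = 1.48e-06). Ereg, the growth factor epiregulin, was at 2.66 ± 0.0478 FPKM with exosomes and 31.2 ± 7.40 FPKM with PBS (-3.11, limma adjusted p = 4.07e-06). Csf1, a macrophage growth factor, was at 65.9 ± 0.999 FPKM with exosomes and 118.3 ± 9.25 FPKM with PBS (-0.83, limma adjusted p = 7.24e-06).

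Other matrix-directed proteases and their inhibitors were mixed, with 4 of 17 tested raised and 5 lowered. Of all tested genes 25.4% were raised and 18.4% lowered. Plaur, the urokinase receptor, was at 12.9 ± 0.657 FPKM with exosomes and 33.6 ± 2.56 FPKM with PBS (SD, n = 3 each; log2 change -1.31, limma adjusted p = 1.03e-06). Plat, tissue plasminogen activator, was at 40.7 ± 1.56 FPKM with exosomes and 29.5 ± 1.63 FPKM with PBS (0.46, limma adjusted p = 0.000178). Bmp1, which removes the carboxy-terminal propeptide of procollagen, was at 17.6 ± 0.265 FPKM with exosomes and 14.6 ± 1.07 FPKM with PBS (0.26, limma adjusted p = 0.00564), and was chosen after its values were seen.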

How the data were processed

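Total RNA went into stranded, paired-end TruSeq mRNA libraries (labels' protocols). Tools listed in the submitters' processing notes are DESeq, HTSeq, Cufflinks, StringTie, HISAT2, Bowtie2, SAMtools and Trimmomatic, with build mm9 but no versions or roles. The authors deposited 1 table. Its expression columns are read as FPKM: the header says only expression, but Cufflinks is named, the column sums differ, and dividing the authors' mean count by the mean expression gives a value that tracks gene length (Spearman 0.767, n = 8900 genes). The number in each column name was looked up in the sample descriptions. Per the file headers the table also gives each group's mean normalized count (a signal), a linear fold (ratio) and p-values. It has no counts for single libraries, which leaves their depth unknown and prevented a count model.

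The fit on log2(FPKM + 1) used limma 3.58.1 in R 4.3.3 and took genes reaching 1 FPKM in at least 3 of the 6 libraries (variance trend, robust, group as the only term, two-sided). A fold on this scale understates changes of low genes. Errors are SD for FPKM and SE for log2 changes. The fit was tested on simulated data in which few genes changed. There it called 37.2% of log2 changes of 0.25, 82% of 0.5 and 98.8% of 1, so small changes can be missed. The members and lists were chosen with earlier results of these data known, so no list has a test of its own. Full values are given for members called with a log2 change of 0.5 or more, for the 3 most abundant of each family and for calls lost when 1 library was left out. From each related list the 3 genes of smallest p were eligible. A few results are not reported here. Alternatives covered pseudocount, filter, scaling, model and left-out libraries.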

Additional observations from a re-analysis of the deposited data

How the results depend on the processing

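Of the 18 called members 13 kept their call and direction under every alternative in which they were tested: Mmp2, Mmp11, Mmp19, Adamts1, Adamts2, Adamts4, Adamts5, Adamts6, Adamts7, Adamts12, Adam9, Timp1 and Timp3. The calls of Mmp14, Adam12, Adam19, Adam23 and Adamtsl5 were lost when 1 library was left out. Leaving out a library gave 11 to 14 raised and 3 to 5 lowered members, with 3 lowered without exosome replicate 3, and 2032 to 2619 raised and 1371 to 1814 lowered genes overall. The count test of the authors' deposited table gave 8 lowered members, over more members tested. It called 1966 genes raised and 2140 lowered, so that 47.9% of its calls were raised, against 58.0% here. Median of ratios scaling gave 49.7% raised and moved the median change of all genes by -0.03.

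Members near 0 changed sign without being called. Mmp28 was at 0.015, 0.038 and 0.042 without exosome replicate 1, PBS replicate 1 and PBS replicate 3. Adamts10 was at 0.036 without exosome replicate 3, 0.025 without PBS replicate 3 and -0.067 without exosome replicate 1, and at -0.13 in the authors' deposited table. Adam15 and Adam17 were at -0.041 and -0.0034 in the authors' deposited table. The cause was not tested. Deviations from the group means correlated at -0.12, -0.02 and -0.29 for same-numbered libraries, and at -0.19 to 0.29 for differently numbered ones. Such deviations sum to 0 within each group, so these values cannot show whether equal numbers pair the libraries. With the replicate number as a block 13 members were raised and 4 lowered, and 2288 genes raised and 1626 lowered.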

Other observations

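PBS replicate 2 had the highest value of the 3 PBS libraries in 17 of the 28 tested members (60.7%) and in 9 of the 13 raised members, against 38.4% of all tested genes. Its Adamts1 level was 111 FPKM, against 93.4 and 86.2 FPKM in the other PBS libraries, and its Mmp11 level 5.80 FPKM, against 4.21 and 3.92 FPKM.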
